A study of Homo sapiens with 4 samples.

Results

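The enzymes of glycolysis and of the tricarboxylic acid (TCA) cycle were followed in RNA that was recovered with the protein SIRT7. The set was defined by a list of gene symbols, drawn up with earlier results of these data known, and comprised 42 of the 23615 genes in the table. It held 17 genes of cytosolic glycolysis including PKM and lactate dehydrogenase, 5 genes of the pyruvate dehydrogenase complex, 16 genes of the mitochondrial TCA cycle, the 3 cytosolic counterparts ACO1, IDH1 and MDH1, and pyruvate carboxylase (PC). All 42 passed the filter on low counts, as did 14555 genes in all. The cells were HEK293T, a human embryonic kidney line, and every library came from a line that stably overexpressed Flag-tagged SIRT7. The labels do not say whether the line was 1 clone. In RNA immunoprecipitation (RIP), an antibody gel retrieves a protein from a lysate together with the RNA bound to it, here through the Flag tag. The 2 RIP libraries were compared with 2 libraries of total input RNA of the same line, both after removal of ribosomal RNA. No pull-down from cells without the tag was analysed here, so RNA that clings to the gel is part of each RIP value. Whether both libraries of a group were grown as separate cultures is not labelled, so p-values measure only the spread between these libraries, which may be technical.

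Glycolysis splits glucose in the cytosol in a preparatory phase that spends ATP and a payoff phase that regains it, and ends in pyruvate, which lactate dehydrogenase can reduce to lactate. Pyruvate that enters the mitochondrion is turned into acetyl-CoA by the pyruvate dehydrogenase complex or into oxaloacetate by pyruvate carboxylase, and the TCA cycle then oxidises the acetyl group and feeds the respiratory chain. All these enzymes are encoded in the nucleus. The mRNAs of the cytosolic enzymes are translated on free ribosomes, and the mitochondrial enzymes are imported after their synthesis. SIRT7 is a lysine deacylase of the nucleus and nucleolus.

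Levels are given as a gene's fragments per 1000000 fragments of the library (CPM), on library sizes scaled with TMM factors, which set a typical gene near no change. A log2 fold change (RIP over input) is given with its standard error (SE), and a gene was called where edgeR's quasi-likelihood test had a Benjamini-Hochberg adjusted p under 0.05 over all tested genes. Each RIP value is thus a share of the RNA recovered, and a gain of one mRNA cannot be told apart from a loss of the rest. As the libraries are from bulk cells, fewer cells with an mRNA and less of it per cell cannot be told apart either. When library totals replaced the TMM factors, the median of all tested genes moved from -0.03 to -0.76, so that scaling shifts each enzyme downward by nearly the same amount and leaves the differences between enzymes as they are.

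The libraries held 18131602 and 17310753 fragments in input and 25655455 and 25998032 in RIP. SIRT7 itself was 5.23 higher in RIP on the log2 scale (edgeR adjusted p = 6.3e-16). Of 10 genes listed as markers of HEK293 cells, 5 were above 10 CPM in every library and PAX2 was under 1 CPM in all 4. Their summed level was 671 and 733 CPM in input and 1016 and 1025 CPM in RIP, and 3 of 10 were higher and 2 lower in RIP (38.0% and 39.7% of all tested genes). VIM, KRT18 and KRT8 were higher, at 0.70, 1.10 and 1.34, and NEFL and EYA1, named to complete the called ones, lower, at -1.04 and -0.97. Markers of blood, liver, muscle, epithelial and other cell types summed to between 7.96 and 10.6 CPM, 11 of 13 were under 1 CPM in every library, and CD3E, HBB, KRT5 and INS were at 0 in all of them. Of the 3 tested, ACTA1 fell by 3.13 on the log2 scale from under 1 CPM, while COL1A1 was at 0.28 (edgeR adjusted p = 0.0943) and GFAP at 0.67 (edgeR adjusted p = 0.146).

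Most enzyme mRNAs were higher in RIP than in input relative to a typical gene. By their medians, glycolytic ones were more so than those of the TCA cycle. Of the 42 genes, 31 were higher and 2 lower, whereas 38.0% of all tested genes were higher and 39.7% lower. The median log2 fold change of the 42 was 0.41, against -0.03 over all tested genes, and 39 of the 42 lay above that all-gene median. In glycolysis 15 of 17 genes were higher and none was lower by edgeR (0 also by DESeq2), with a median of 0.70. In the mitochondrial cycle 12 of 16 were higher and 1 was lower, with a median of 0.37. In the pyruvate dehydrogenase complex 2 of 5 were higher and 1 was lower, with a median of 0.14. With library totals, which called 17.0% of all tested genes higher and 65.5% lower, the same 42 genes gave 10 higher and 22 lower, glycolysis 5 and 6, the mitochondrial cycle 4 and 9, and the pyruvate dehydrogenase complex 0 and 5. That scaling shifts every gene by nearly the same amount, so places relative to the all-gene median were bound to change little. With either scaling all 17 glycolytic genes lay above that median. So did 15 of the 16 in the cycle and 4 of 5 in the dehydrogenase complex. With the length correction described below, those above the median were 12 of 17, 10 of 16 and 3 of 5. A change of at least 2-fold upward was found for 7 of the 42, close to the 17.5% of all tested genes that had one.

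**Figure D1:**
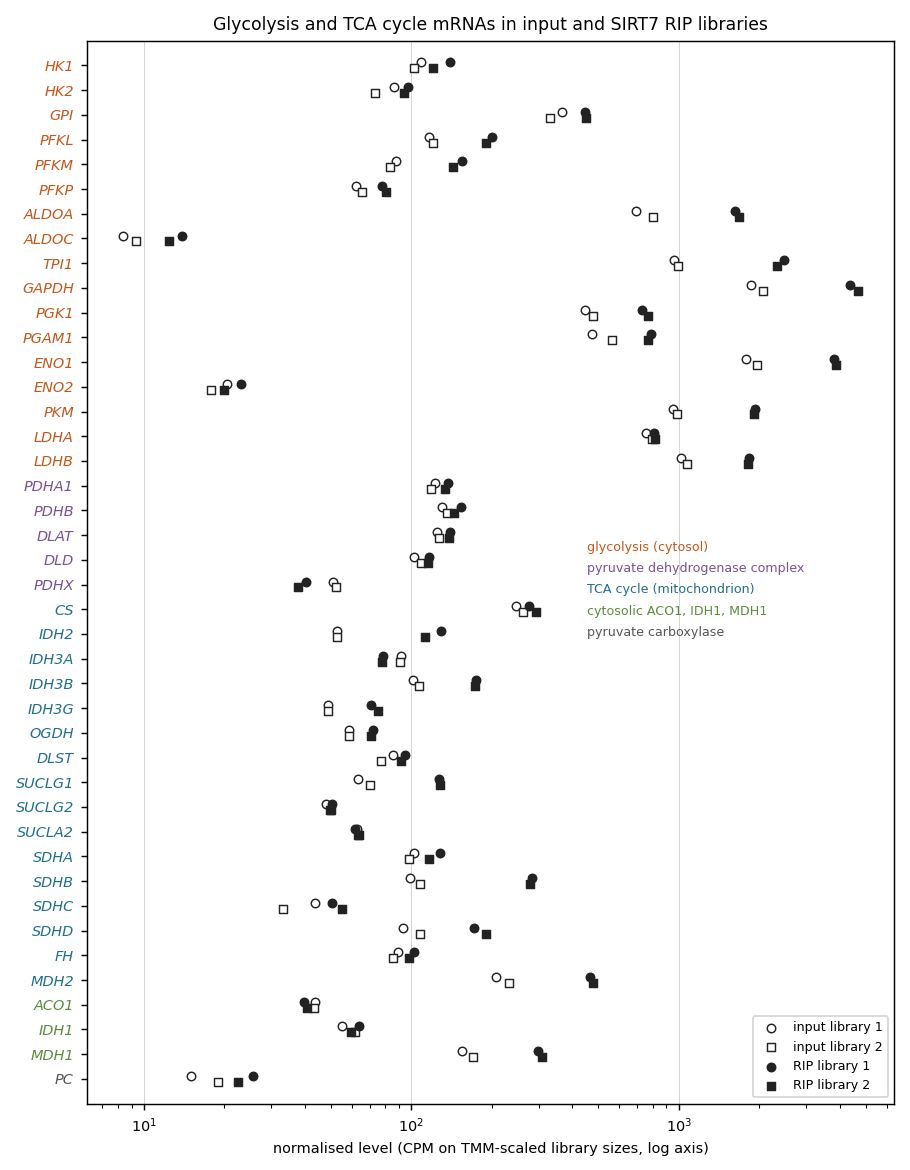
Normalised level (CPM on TMM-scaled library sizes, log axis) of the 42 enzyme mRNAs in each library; open symbols are input, filled symbols RIP, circles library 1 and squares library 2, and gene names are coloured by pathway. The filled symbols lie to the right of the open ones for most glycolytic genes, though only narrowly for LDHA. The groups overlap for ENO2, SUCLG2, SUCLA2 and IDH1. For PDHX, IDH3A and, narrowly, ACO1 the filled symbols lie to the left.

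In the first, preparatory phase of glycolysis every gene was higher in RIP with TMM factors, whereas with library totals HK1, HK2, GPI and PFKP were lower. The gains were small at the hexokinases and above 2-fold for ALDOA and TPI1. HK1, a hexokinase that traps glucose as its phosphate, was at 109 and 103 CPM in input and at 139 and 121 CPM in RIP. Its log2 fold change was 0.30 (SE 0.08, edgeR adjusted p = 0.0028), and without RIP library 1 the call was lost (0.201, edgeR adjusted p = 0.106). HK2, the second hexokinase of the set, was at 86.2 and 72.9 CPM in input and 97.0 and 94.3 CPM in RIP (0.27, SE 0.08, edgeR adjusted p = 0.0080). The groups did not overlap for either gene, but the gap between them was narrow. GPI, which isomerises glucose phosphate to fructose phosphate, was at 365 and 331 CPM in input and 447 and 451 CPM in RIP (0.37, SE 0.07, edgeR adjusted p = 2.0e-04).

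The 3 genes of phosphofructokinase, the committed step of glycolysis, were all higher in RIP but not by the same amount. PFKL, named for the liver form, was at 117 and 120 CPM in input and 200.2 and 190 CPM in RIP (0.72, SE 0.07, edgeR adjusted p = 1.1e-07). PFKM, the muscle form, was at 88.0 and 83.2 CPM in input and 155 and 143 CPM in RIP (0.80, SE 0.07, edgeR adjusted p = 5.7e-08). PFKP, the platelet form, was at 62.3 and 65.7 CPM in input and only 77.9 and 80.3 CPM in RIP (0.31, SE 0.07, edgeR adjusted p = 0.0013). PFKP thus made up 26.3% ± 0.788 (SD, n = 2) of the summed phosphofructokinase FPKM in input and 20.8% ± 1.07 (n = 2) in RIP, with no overlap. FPKM is the deposited level per transcript length and library size, the scale on which levels of different genes are compared here.

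ALDOA, the main aldolase, which cleaves fructose bisphosphate into triose phosphates, was at 695 and 805 CPM in input and 1631 and 1684 CPM in RIP. Every RIP library was thus at least 2-fold above every input library, and the fold change was 1.14 (SE 0.08, edgeR adjusted p = 1.7e-09). TPI1, which interconverts the triose phosphates, had the largest log2 fold change of the glycolytic genes, 1.30 (SE 0.07, edgeR adjusted p = 1.0e-10). It went from 963 and 996 CPM in input to 2475 and 2334 CPM in RIP, and 88.5% of all tested genes had a lower fold change. ALDOC, the aldolase best known from brain, was scarce, at 8.37 and 9.32 CPM in input and 13.9 and 12.5 CPM in RIP (0.58, SE 0.13, edgeR adjusted p = 7.4e-04).

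The payoff phase held the most abundant members. GAPDH, which oxidises glyceraldehyde phosphate, was at 1859 and 2073 CPM in input and 4391 and 4672 CPM in RIP (1.20, SE 0.07, edgeR adjusted p = 5.4e-10). ENO1, the ubiquitous enolase, was at 1791 and 1958 CPM in input and 3825 and 3875 CPM in RIP (1.04, SE 0.07, edgeR adjusted p = 1.6e-09). PKM, pyruvate kinase, which makes pyruvate and ATP, was at 953 and 984 CPM in input and 1929 and 1915 CPM in RIP (0.99, SE 0.07, edgeR adjusted p = 1.6e-09). In these 3 genes the libraries of a group lay close together and the groups far apart. PGK1, which makes the first ATP of the payoff phase, was at 445 and 477 CPM in input and 731 and 768 CPM in RIP (0.70, SE 0.07, edgeR adjusted p = 1.7e-07). PGAM1, phosphoglycerate mutase, was at 475 and 565 CPM in input and 789 and 770 CPM in RIP (0.58, SE 0.08, edgeR adjusted p = 6.9e-06). ENO2, the enolase of neurons, was scarce and overlapped between the groups, at 20.5 and 17.8 CPM in input and 23.0 and 19.9 CPM in RIP (0.16, SE 0.11, edgeR adjusted p = 0.18). With library totals GAPDH (0.47), ENO1 (0.31) and PKM (0.26) were still higher. Under that scaling PGK1 (-0.03) and PGAM1 (-0.15) were not called, and ENO2 was lower (-0.57).

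The 2 abundant isozymes of lactate dehydrogenase parted. LDHA, whose subunit favours the making of lactate, was at 756 and 797 CPM in input and 807 and 814 CPM in RIP. That difference did not pass the test (0.06, SE 0.07, edgeR adjusted p = 0.41), although without input library 2 it was called (0.118, edgeR adjusted p = 0.0355). LDHB, whose subunit favours the oxidation of lactate, was at 1019 and 1072 CPM in input and 1838 and 1814 CPM in RIP (0.81, SE 0.07, edgeR adjusted p = 2.2e-08). LDHB made up 70.5% ± 0.0295 (n = 2) of the summed FPKM of the pair in input and 80.0% ± 0.222 (n = 2) in RIP. Such a share is taken within a library, so it does not depend on the library scaling, but it carries any effect of length. With the length correction LDHB was at -0.07 and LDHA at -0.27. With library totals LDHB was not called (0.07, edgeR adjusted p = 0.26) and LDHA was lower (-0.67).

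Summed per step, the FPKM of aldolase went from 512 ± 59.7 (SD, n = 2) in input to 1138 ± 24.0 (n = 2) in RIP, the largest level of the preparatory phase after that of triose phosphate isomerase. Triose phosphate isomerase went from 785 ± 28.3 to 1951 ± 85.6 FPKM, and glyceraldehyde phosphate dehydrogenase from 1537 ± 138 to 3582 ± 152 FPKM (n = 2 each). Hexokinase was the lowest step in both groups, at 39.4 ± 2.0 FPKM in input and 48.7 ± 3.82 FPKM in RIP. The ratio of RIP to input was 1.24 for hexokinase, 1.31 for glucose phosphate isomerase, 1.58 for phosphofructokinase, 1.64 for phosphoglycerate kinase, 1.52 for phosphoglycerate mutase and 1.56 for lactate dehydrogenase. It was 2.22 for aldolase, 2.49 for triose phosphate isomerase, 2.33 for glyceraldehyde phosphate dehydrogenase, 2.08 for enolase and 2.01 for pyruvate kinase. Aldolase, triose phosphate isomerase, glyceraldehyde phosphate dehydrogenase, enolase and pyruvate kinase thus each at least doubled on the deposited FPKM scale, while the first 3 steps did not.

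In the pyruvate dehydrogenase complex 4 of 5 genes had a log2 fold change between 0.13 and 0.17, and PDHX fell. PDHA1 and PDHB, the subunits of the decarboxylase that starts the reaction, were at 122 and 119 CPM and at 131 and 136 CPM in input. In RIP they were at 137 and 134 CPM and at 153 and 145 CPM. Both were called higher by little, 0.17 for PDHA1 (SE 0.07, edgeR adjusted p = 0.032) and 0.16 for PDHB (SE 0.07, edgeR adjusted p = 0.045). PDHA1 lost its call without RIP library 1 (edgeR adjusted p = 0.202) and without RIP library 2 (edgeR adjusted p = 0.122). PDHB lost its call without RIP library 1, RIP library 2 or input library 1 (edgeR adjusted p = 0.332, 0.0956 and 0.0971), and also with DESeq2 (adjusted p = 0.0546) and with no filter on low counts (edgeR adjusted p = 0.0620). DLAT, the acetyltransferase core, went from 124 and 128 CPM to 140 and 138 CPM (0.14, SE 0.07, edgeR adjusted p = 0.067). DLD, the dihydrolipoamide dehydrogenase shared with other complexes, went from 103 and 109 CPM to 116 and 115 CPM (0.13, SE 0.07, edgeR adjusted p = 0.090). Without input library 2 both were called, at 0.178 and 0.193. PDHX, which tethers that dehydrogenase to the core, was lower in RIP, at 51.1 and 52.5 CPM in input and 40.4 and 37.5 CPM in RIP (-0.41, SE 0.08, edgeR adjusted p = 2.4e-04).

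In the mitochondrial cycle the largest gains were in SDHB, IDH2, MDH2 and SUCLG1. SDHB, the iron-sulfur subunit of succinate dehydrogenase, had the largest log2 fold change of all 42 genes, 1.44 (SE 0.07, edgeR adjusted p = 4.7e-11), from 98.6 and 108 CPM in input to 282 and 277 CPM in RIP. IDH2, the NADP-dependent isocitrate dehydrogenase of the mitochondrion, went from 52.5 and 52.8 CPM to 129 and 113 CPM (1.20, SE 0.08, edgeR adjusted p = 1.2e-09). MDH2, the malate dehydrogenase that closes the cycle, went from 208 and 232 CPM to 468 and 480 CPM (1.11, SE 0.07, edgeR adjusted p = 1.2e-09). For these 3 genes each RIP library was above 2 times the input mean, and the spread within a group was small beside the gap. SUCLG1, the shared alpha subunit of succinyl-CoA ligase, went from 63.1 and 70.1 CPM to 127 and 129 CPM (0.94, SE 0.07, edgeR adjusted p = 1.1e-08).

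CS, citrate synthase at the entry of the cycle, was at 247 and 262 CPM in input and 274 and 292 CPM in RIP and did not pass the test (0.16, SE 0.07, edgeR adjusted p = 0.053). It was called with DESeq2 (0.172, adjusted p = 0.0456) and without input library 2 (0.216, edgeR adjusted p = 0.0035). Among the subunits of the NAD-dependent isocitrate dehydrogenase, the catalytic one was lower and its partners higher with TMM factors, whereas with library totals or the length correction neither partner was called. IDH3A, the catalytic alpha subunit, was at 91.6 and 90.6 CPM in input and 78.1 and 78.0 CPM in RIP (-0.22, SE 0.07, edgeR adjusted p = 0.0084), a call lost without RIP library 1 (edgeR adjusted p = 0.0839) or RIP library 2 (edgeR adjusted p = 0.0864). IDH3B, the beta subunit, went from 101 and 107 CPM to 175 and 173 CPM (0.74, SE 0.07, edgeR adjusted p = 6.9e-08). IDH3G, the gamma subunit, went from 48.7 and 49.0 CPM to 70.7 and 75.1 CPM (0.58, SE 0.08, edgeR adjusted p = 3.5e-06).

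OGDH, the decarboxylase of the oxoglutarate dehydrogenase complex, was at 58.3 CPM in both input libraries and at 71.8 and 70.8 CPM in RIP (0.29, SE 0.07, edgeR adjusted p = 0.0018). DLST, the succinyltransferase core of that complex, went from 85.5 and 77.3 CPM to 94.5 and 91.9 CPM (0.20, SE 0.07, edgeR adjusted p = 0.026). Its call was lost without RIP library 1, RIP library 2 or input library 2 (edgeR adjusted p = 0.146, 0.0694 and 0.0836) and with limma on the FPKM (0.096, adjusted p = 0.236 with a pseudocount of 1). Its effective length in the table was 1.08 times as long in RIP as in input, so its FPKM and its counts do not move in step. Neither beta subunit of succinyl-CoA ligase was called. SUCLG2, the GTP-forming one, was at 47.9 and 49.9 CPM in input and 50.4 and 49.5 CPM in RIP (0.03, SE 0.08, edgeR adjusted p = 0.73). SUCLA2, the ATP-forming one, was at 62.5 and 63.3 CPM in input and 61.8 and 63.7 CPM in RIP (-0.00, SE 0.07, edgeR adjusted p = 0.97). The groups overlapped for both.

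The 4 subunits of succinate dehydrogenase, which also serves in the respiratory chain, were all called higher with TMM factors but by unequal amounts, whereas with library totals SDHA and SDHC were lower. SDHA, the flavoprotein, went from 103 and 97.9 CPM to 128 and 117 CPM (0.29, SE 0.07, edgeR adjusted p = 0.0022), a call lost without RIP library 1 (0.223, edgeR adjusted p = 0.0699). SDHC, a membrane anchor, went from 43.7 and 33.1 CPM to 50.7 and 55.0 CPM (0.46, SE 0.11, edgeR adjusted p = 0.0012). SDHD, the other anchor, went from 93.5 and 108 CPM to 172 and 191 CPM (0.85, SE 0.08, edgeR adjusted p = 1.1e-07). FH, fumarase, went from 89.4 and 85.5 CPM to 102 and 98.0 CPM (0.19, SE 0.07, edgeR adjusted p = 0.021), a call lost without RIP library 1 (edgeR adjusted p = 0.172) or RIP library 2 (edgeR adjusted p = 0.0616).

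Of the 3 cytosolic counterparts of cycle enzymes, 1 was called with TMM factors. MDH1, malate dehydrogenase of the malate-aspartate shuttle, went from 155 and 170 CPM to 298 and 308 CPM (0.90, SE 0.07, edgeR adjusted p = 1.2e-08). IDH1, the cytosolic NADP-dependent isocitrate dehydrogenase, overlapped between groups, at 55.3 and 61.5 CPM in input and 63.7 and 59.4 CPM in RIP (0.08, SE 0.08, edgeR adjusted p = 0.39). ACO1, the cytosolic aconitase that doubles as an iron-regulated RNA-binding protein, was at 43.5 and 43.2 CPM in input and 39.8 and 40.7 CPM in RIP (-0.11, SE 0.08, edgeR adjusted p = 0.22). PC, pyruvate carboxylase, which replenishes oxaloacetate, went from 15.0 and 18.9 CPM to 25.5 and 22.5 CPM (0.51, SE 0.12, edgeR adjusted p = 0.0011).

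The median of glycolysis exceeded that of the mitochondrial cycle by 0.33 on the log2 scale with TMM factors. Library totals shift both medians nearly alike, so the 0.33 found with them adds nothing. Taken for each RIP library against each input library, the difference ranged from 0.16 to 0.42. It was 0.20 without input library 1 and 0.46 without input library 2. Genes are not replicates, so the difference has no test.

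As a share of all fragments, glycolysis was larger in RIP than in input and the mitochondrial cycle smaller. This is the scale of library totals, on which the median log2 fold change of all tested genes was -0.76. On it the median was -0.03 over glycolysis, -0.36 over the cycle and -0.59 over the dehydrogenase complex. The cycle and the complex thus fell less than a typical gene. Glycolysis took 1.27% and 1.34% of all fragments in input and 1.52% and 1.53% in RIP. For the mitochondrial cycle it was 0.194% and 0.197% in input and 0.181% and 0.183% in RIP, and the pyruvate dehydrogenase complex 0.0689% and 0.0694% in input and 0.0455% and 0.0442% in RIP. None of these shares overlapped between the groups. Levels of single genes on TMM-scaled library sizes did not overlap either for 12978 of all 14555 tested genes. Shares are given as values only, since with 2 libraries in each group the smallest two-sided p of an exact permutation is 0.33. The ratio of glycolytic to cycle fragments was 6.57 and 6.82 in input and 8.38 and 8.40 in RIP. GAPDH, ENO1 and TPI1 together made up 47.4% ± 0.514 (SD, n = 2) of the glycolytic fragments in input and 54.9% ± 0.309 (n = 2) in RIP. Leaving these 3 out, the ratio was 3.48 and 3.56 in input and 3.80 and 3.77 in RIP. RIP over input was thus 1.25 for the full ratio and 1.07 without GAPDH, ENO1 and TPI1. These 3 had the highest glycolytic levels in RIP, and each gained more than glycolysis as a whole. No gene was left out of the cycle, so a lower value was bound to follow.

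**Figure D2:**
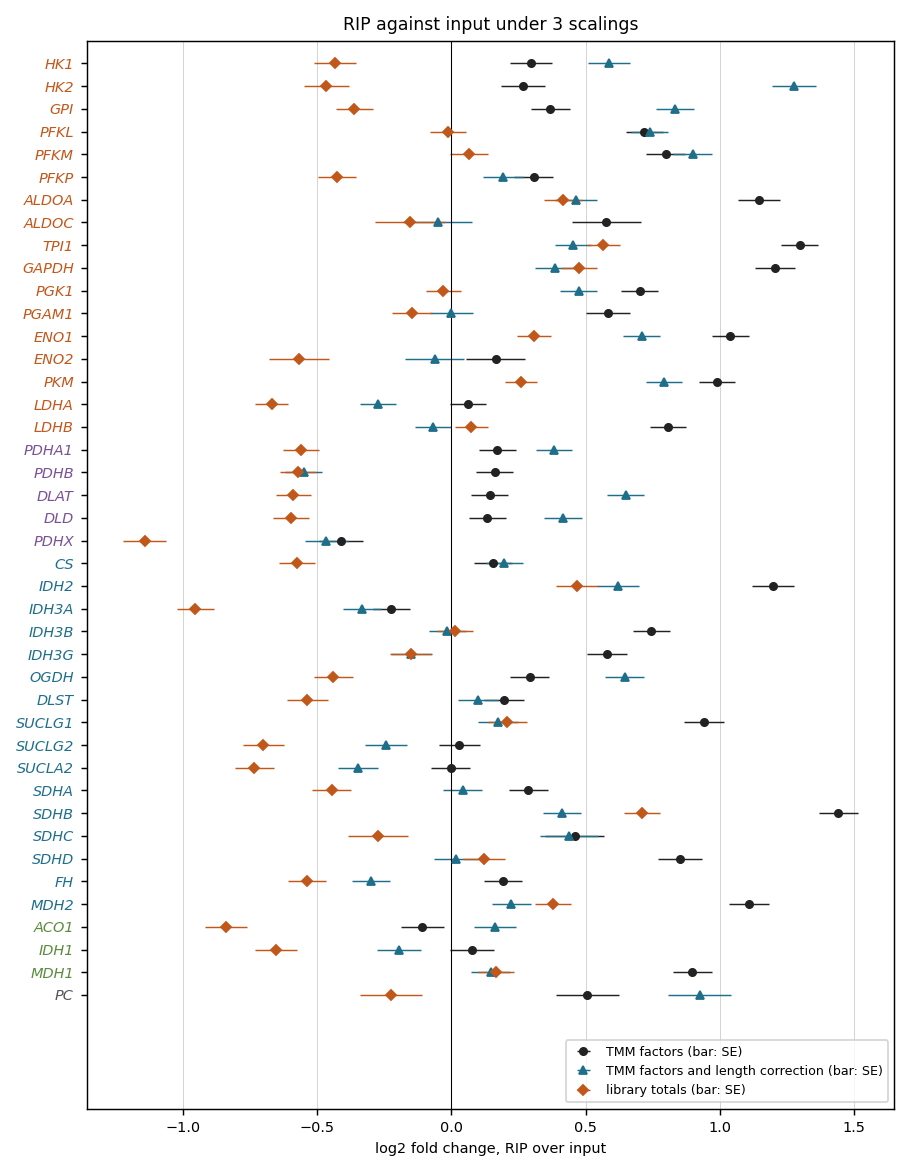
Log2 fold change (RIP over input) of each enzyme with its SE (bars) from edgeR, with TMM factors (circles), with TMM factors and a length correction (triangles) and with library totals (diamonds). The diamonds lie at a nearly constant distance left of the circles, while the triangles move right for long genes such as HK2, from 0.27 to 1.28, and left for short ones such as LDHB, from 0.81 to -0.07.

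Fold change fell with transcript length in these libraries. Dividing a gene's scaled fragments by its FPKM gave its effective length, stated here relative to the median tested gene. Across 14555 genes its Spearman correlation with the fold change was -0.60, and across the 42 enzymes it was -0.56. These are correlations across genes of the same 4 libraries, given as a description with no p. It was -0.55 over the 17 glycolytic genes and -0.69 over the 16 genes of the mitochondrial cycle. The part that length, or anything that goes with it, plays in the enzyme values was not tested.

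Among genes shorter than 0.6 of the median, all 15 enzymes were higher in RIP, and so were 2493 of the 3401 tested genes of that length. Of the 15 enzymes between 0.6 and 1, 8 were higher and 2 lower, where 1876 of 3876 tested genes were higher and 903 lower. Above the median length 8 of 12 enzymes were higher and none was lower, where 1162 of 7278 tested genes were higher and 4548 lower. Those 8 were HK1, HK2, GPI, PFKL, PFKM, PDHA1, OGDH and PC, so that all 5 glycolytic genes of this length were among them (4 of 5 without RIP library 1, for HK1). With no genes lower by edgeR there, the other 4 were DLAT, DLD, CS and ACO1, with adjusted p from 0.0527 to 0.22. With library totals HK1, HK2, GPI, PDHA1 and OGDH were called lower, and PFKL, PFKM and PC were not called. The 2 pathways hardly differed among the short genes with TMM factors. Below 0.6 the median log2 fold change was 0.97 over 6 glycolytic genes and 0.94 over 7 of the cycle. Between 0.6 and 1 it was 0.50 over 6 and 0.19 over 7, and above 1 it was 0.37 over 5 and 0.22 over 2.

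**Figure D3:**
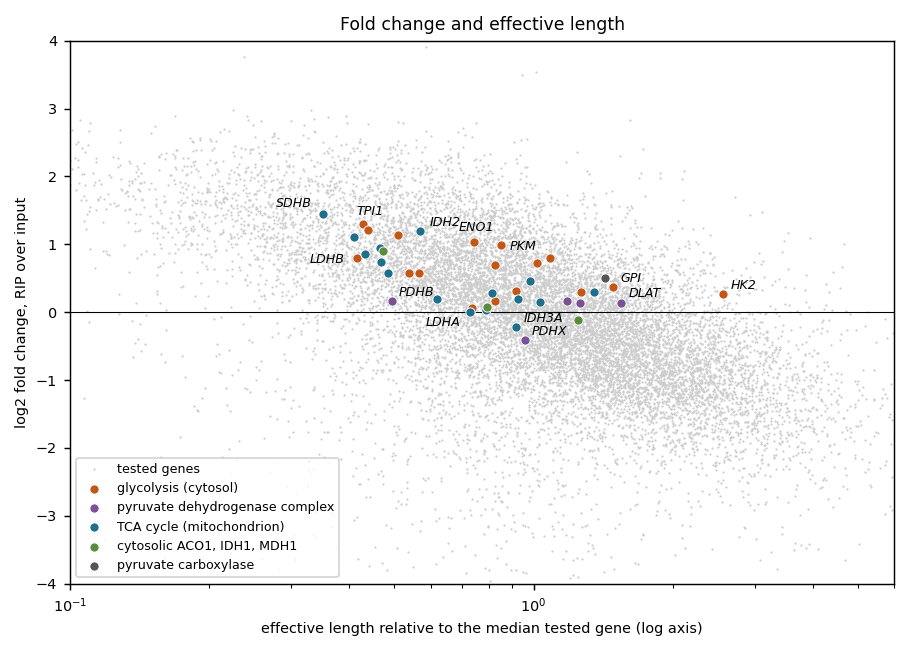
Log2 fold change (RIP over input, TMM factors) against effective length relative to the median tested gene (log axis); grey points are 14398 tested genes, with the 157 outside the axes not drawn, and coloured points are the enzymes by pathway. The grey cloud falls from left to right, and HK2, GPI and DLAT lie above most grey points of their length.

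A loess trend of fold change on log2 length was taken out with offsets in a second fit, which called 35.0% of all tested genes higher and 32.9% lower. After this length correction 23 of the 42 enzymes were higher and 8 lower, with a median of 0.19 against 0.00 over all tested genes. In glycolysis 12 were higher and 1 was lower, with a median of 0.46. In the mitochondrial cycle 7 were higher and 4 lower, with a median of 0.07, and in the pyruvate dehydrogenase complex 3 were higher and 2 lower. The difference between the medians of glycolysis and the cycle was 0.39 with the correction. Over the 17 glycolytic genes the corrected values rose with length (Spearman 0.71), the reverse of the uncorrected order, and over the 16 cycle genes they had a correlation of 0.08.

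The correction changed the order within the pathway. The glycolytic genes with the largest corrected values were HK2 (1.28), PFKM (0.90), GPI (0.83), PKM (0.79), PFKL (0.74), ENO1 (0.71) and HK1 (0.59). TPI1 (0.45), ALDOA (0.46), PGK1 (0.47) and GAPDH (0.38) were still higher. PFKP was at 0.19 (edgeR adjusted p = 0.029). Calls ended for ALDOC (-0.05), PGAM1 (-0.00) and LDHB (-0.07, edgeR adjusted p = 0.39), and LDHA was lower (-0.27, edgeR adjusted p = 0.0020).

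In the cycle, OGDH (0.64), IDH2 (0.62), SDHC (0.44), SDHB (0.41), MDH2 (0.22) and SUCLG1 (0.17, edgeR adjusted p = 0.048) were still higher with the length correction, and CS was now called (0.20, edgeR adjusted p = 0.020). Calls ended for IDH3B (-0.02), IDH3G (-0.15), DLST (0.10), SDHA (0.04) and SDHD (0.02). FH turned from higher to lower (-0.30), as did PDHB in the pyruvate dehydrogenase complex (-0.55, edgeR adjusted p = 4.5e-06). SUCLG2 (-0.24) and SUCLA2 (-0.35) were now lower. DLAT (0.65), DLD (0.41) and PDHA1 (0.38) were higher. PDHX (-0.47) and IDH3A (-0.33) were lower with and without the correction, the 2 enzymes of which this was so. Of the other genes, PC was at 0.92 (edgeR adjusted p = 4.8e-06), IDH1 was lower (-0.19, edgeR adjusted p = 0.043), and MDH1 (0.15) and ACO1 (0.16) were not called.

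Ratios of partner mRNAs within a library do not depend on its scaling, though they carry any effect of length. The log2 ratio of LDHB to LDHA counts was 0.43 in both input libraries and 1.19 and 1.16 in RIP. That of IDH3B to IDH3A was 0.14 and 0.23 in input and 1.16 and 1.15 in RIP, and that of IDH3G to IDH3A was -0.91 and -0.89 in input and -0.14 and -0.06 in RIP. For SDHB to SDHA the ratio was -0.06 and 0.14 in input and 1.14 and 1.25 in RIP, and that of SDHD to SDHA was -0.13 and 0.14 in input and 0.42 and 0.71 in RIP. For SUCLG1 to SUCLG2 it was 0.40 and 0.49 in input and 1.33 and 1.38 in RIP. Mitochondrial IDH2 stood to the cytosolic IDH1 at -0.07 and -0.22 in input and 1.01 and 0.93 in RIP. In each of these ratios the groups did not overlap, and their means were apart by more than the libraries of a group. The gaps shrank with the length correction, under which LDHA and LDHB were at -0.27 and -0.07. Under it IDH3A, IDH3B and IDH3G were at -0.33, -0.02 and -0.15, and SDHA, SDHB and SDHD at 0.04, 0.41 and 0.02.

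For other partners the uncorrected ratios of the groups overlapped. The log2 ratio of HK1 to HK2 was 0.34 and 0.49 in input and 0.52 and 0.36 in RIP. Groups also overlapped for PDHB to PDHA1, with means of 0.15 and 0.14, for DLD to DLAT, at -0.25 and -0.26, for SUCLG2 to SUCLA2, at -0.36 and -0.33, and for SDHC to SDHA, at -1.40 and -1.21. With the length correction HK1 and HK2 were at 0.59 and 1.28, and PDHA1 and PDHB at 0.38 and -0.55. PDHX to DLAT did not overlap, at -1.29 and -1.28 in input and -1.79 and -1.88 in RIP. For malate dehydrogenase the ratio of the mitochondrial MDH2 to the cytosolic MDH1 was 0.43 and 0.45 in input and 0.65 and 0.64 in RIP, a smaller step than that of IDH2 to IDH1.

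**Figure D4:**
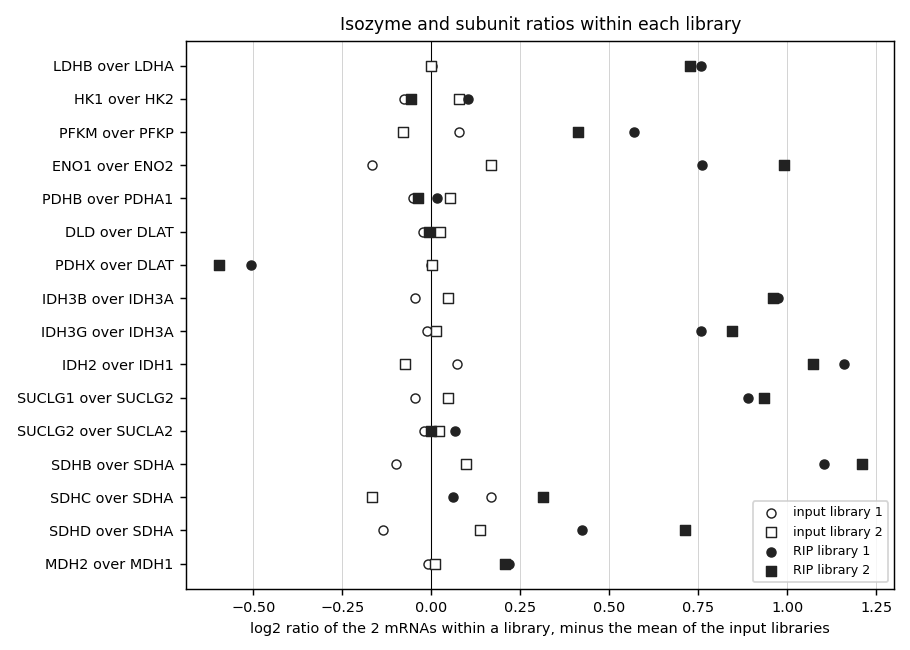
Log2 ratio of CPM of 2 partner mRNAs within each library, minus the mean of the input libraries; open symbols are input, filled symbols RIP, circles library 1 and squares library 2. The RIP libraries lie near 1 for IDH3B over IDH3A, SUCLG1 over SUCLG2, SDHB over SDHA and IDH2 over IDH1, below 0 for PDHX over DLAT, and among the input libraries for HK1 over HK2, PDHB over PDHA1 and DLD over DLAT.

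Genes that control or feed the pathway gave calls in both directions, to be read against the 38.0% of all tested genes that were higher and the 39.7% that were lower. Of 18 genes for glucose and lactate transport and for the control of glycolysis, 15 were tested, 5 were higher and 8 lower, with a median of -0.24. BSG, a chaperone of lactate transporters, was higher (0.996, SE 0.08, edgeR adjusted p = 1.4e-08), while SLC16A1, a lactate transporter, was lower (-0.61, SE 0.07, edgeR adjusted p = 5.4e-07), from 344 CPM in both input libraries to 230 and 222 CPM in RIP. PFKFB1, an enzyme that makes and breaks a regulator of phosphofructokinase, had the largest change of the list (-2.50, SE 0.68), from under 1 CPM in input, a call lost without RIP library 1 (-1.94, edgeR adjusted p = 0.0663). The length correction left 6 higher and 3 lower, and library totals 1 and 13.

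Of 12 genes for pyruvate entry and for control of the pyruvate dehydrogenase complex, 4 were higher and 5 lower, with a median of -0.05, shares near the 38.0% and 39.7% of all tested genes. The higher ones included both subunits of the mitochondrial pyruvate carrier. MPC1 went from 48.9 and 53.2 CPM to 137 and 142 CPM (1.45, SE 0.07, edgeR adjusted p = 6.7e-11), and MPC2 from 56.2 and 66.2 CPM to 177 and 174 CPM (1.52, SE 0.08, edgeR adjusted p = 1.0e-10). LIPT2, an octanoyltransferase at the start of lipoic acid synthesis, rose by 1.92 (SE 0.14). The kinases of the complex were called in both directions, and its phosphatase subunits were lower. PDK2, named because it completes the 4 higher genes, was called higher (0.65, SE 0.09, edgeR adjusted p = 1.3e-05), which ended with the length correction (0.13), and PDK4 was not called (-0.18, edgeR adjusted p = 0.58). PDK3, a kinase that inactivates pyruvate dehydrogenase, went from 114 and 101 CPM to 29.3 and 30.2 CPM (-1.85, SE 0.08, edgeR adjusted p = 1.5e-11). Its effective length in RIP was 0.40 of that in input, and its FPKM went only from 11.97 ± 0.350 (SD, n = 2) to 8.47 ± 0.223 (n = 2). The other lower genes, named because they complete the 5, were PDPR (-1.48), PDK1 (-1.47), PDP2 (-1.22) and PDP1 (-0.86), and PDP2 lost its call with the length correction (-0.22, edgeR adjusted p = 0.072). With the length correction 3 of 12 were higher and 6 lower; library totals gave 3 and 8.

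Of 22 genes for linked enzymes, carriers and assembly factors of the cycle, 21 were tested, 12 were higher and 4 lower, with a median of 0.74. SLC25A1, the mitochondrial citrate carrier, went from 110 and 131 CPM to 427 and 429 CPM (1.83, SE 0.08, edgeR adjusted p = 1.4e-11). ACLY, which splits exported citrate for lipid synthesis, went from 467 and 435 CPM to 775 and 733 CPM (0.74, SE 0.07, edgeR adjusted p = 9.1e-08) and was at 1.25 with the length correction. SDHAF1, an assembly factor of succinate dehydrogenase, rose from 14.8 and 19.1 CPM to 68.4 and 67.3 CPM (2.005, SE 0.10, edgeR adjusted p = 7.8e-11). With the length correction 13 of 21 were higher and 1 lower; library totals gave 5 and 10.

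The pentose phosphate pathway, which branches from glycolysis to make NADPH and ribose phosphate, had 6 of 8 genes higher and 2 lower, with a median of 0.69. TKT, transketolase, went from 282 and 285 CPM to 569 and 562 CPM (0.996, SE 0.07, edgeR adjusted p = 1.4e-09). PGD, which makes NADPH from phosphogluconate, rose by 1.10 (SE 0.07) and PGLS, the lactonase before it, by 1.85 (SE 0.09). TALDO1, transaldolase, was at 0.71 (SE 0.07, edgeR adjusted p = 2.6e-07), and was lower with the length correction (-0.22, edgeR adjusted p = 0.014). With that correction 4 of 8 were higher and 2 lower; library totals gave 3 and 3.

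**Figure D5:**
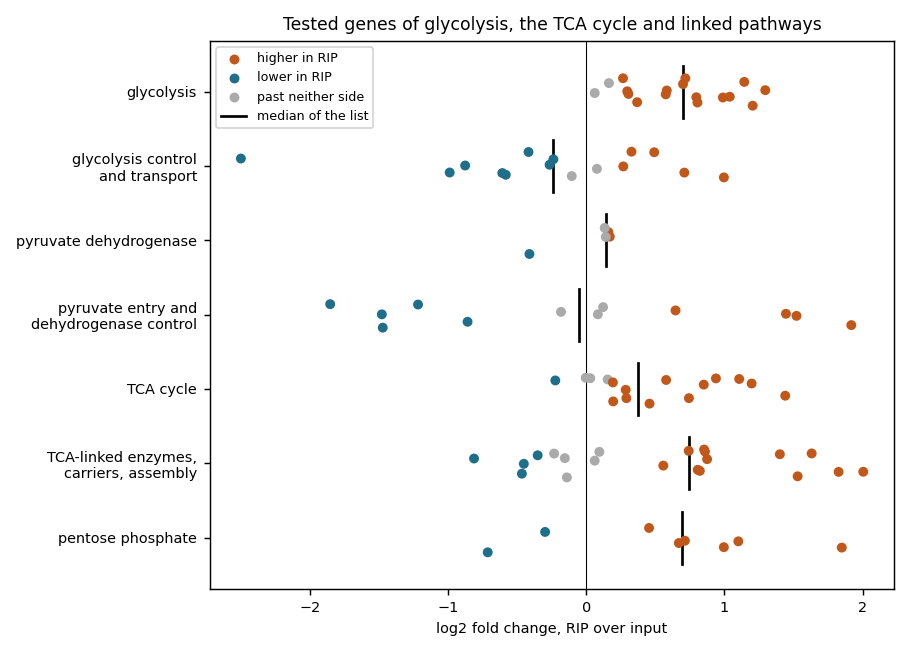
Log2 fold change (RIP over input, TMM factors) of each tested gene in 7 lists, with vertical spread added only to separate points; black bars are medians and colours give the edgeR call. Glycolysis (median 0.70), the pentose phosphate pathway (0.69) and the TCA cycle (0.37) lie mostly right of 0. So do the linked enzymes, carriers and assembly factors of the cycle, with the highest median (0.74). The control and transport genes of glycolysis (-0.24) lie mostly left of it.

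Isozymes of other tissues were scarce. All 16 listed (such as those of liver, muscle and testis) summed to between 15.4 and 18.8 CPM in each library, and 10 were under 1 CPM everywhere. Of the 6 tested, 3 were higher and 2 lower (38.0% and 39.7% of all tested genes). PCK1, named to complete the called ones, was higher (0.91, edgeR adjusted p = 0.016). It was at 1.32 and 0.904 CPM in input and 2.51 and 1.69 CPM in RIP. The call held with the length correction (0.81, edgeR adjusted p = 0.034) but not with library totals (0.18). LDHC and GAPDHS, isozymes of sperm, were at up to 5.92 and 6.28 CPM and were called higher (0.63 and 0.38), which ended with the length correction (-0.32 and -0.36) and with library totals. The GAPDHS call was also lost with DESeq2 (adjusted p = 0.160) and with any 1 of the 4 libraries left out (edgeR adjusted p from 0.0935 to 0.144). PKLR, pyruvate kinase of liver and red cells, and PGAM2, the mutase of muscle, were lower (-1.20 and -1.17). PKLR lost its call with DESeq2 (adjusted p = 0.0745) and without RIP library 1 or input library 1 (edgeR adjusted p = 0.160 and 0.0733).

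How reads with several positions were counted is not given in the sources used here, which bears on genes with near-identical copies. By RefSeq gene symbols, 22 of the 42 enzymes have numbered pseudogenes, 65 of them for GAPDH and 13 for PGAM1, and fragments may have been split between a gene and its copies. The table listed 3 copies of SDHA, which were low and moved against it. SDHAP1 was lower (-1.70), SDHAP3 was lower (-1.41), and SDHAP2, named because it completes the 3, was at -1.23. The strand setting of the counting is not given either, and 9 of the 42 overlap another tested gene. IDH3G overlaps SSR4, a subunit of the translocon-associated complex, which went from 176 to 603 CPM (means) and thus stood above IDH3G in both groups. PC overlaps LRFN4, which went from 28.5 to 78.5 CPM, and PDHX overlaps APIP, which was at 0.88 against the fall of PDHX. PFKM overlaps SENP1, which was at -0.92. These 4 overlaps were named after their values were seen, and the values of IDH3G, PC, PDHX and PFKM are uncertain to that extent.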

How the data were processed

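One deposited table held 23615 genes in 2 input and 2 RIP libraries. The submitters' processing notes name the build hg19 and the tools Cuffdiff 2.2.1, TopHat2 2.0.13, Bowtie2 2.2.6 and cutadapt 1.5. Not given in the sources used here are the annotation, the strand setting and the treatment of multiply placed reads. Per gene the authors deposited an expected count of fragments, and 97.94% of these were whole. A deposited scaled signal holds the same fragments divided by a library factor, and the deposited FPKM values are that signal per transcript length and library size. Numbering in the table starts at 0, so which library is number 1 rests on that order.

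The estimated counts were rounded and tested with edgeR 4.0.16 in R 4.3.3: filterByExpr (minimum count 10, total 15), TMM factors (1.30, 1.28, 0.777 and 0.776), glmQLFit, then glmQLFTest on the group term, and p-values adjusted by Benjamini-Hochberg over 14555 genes at 0.05. The fit was tested on simulated data. SE is the fold change over the square root of its F statistic. The length correction used a loess trend (span 0.3) as offsets. Alternatives were DESeq2 1.42.0, RLE factors, library totals, no filter, the replicate number as a block, limma 3.58.1 on log2(FPKM + 1) and log2(FPKM + 0.1), each library left out in turn, and the 10 most abundant genes left out. Replicate libraries differed beyond sampling noise (6.17 and 3.40 chi-square per gene in input and RIP). Failed status marked 12 entries in 7 genes, none an enzyme of the set. Depth bounds only the counting error, as fragments carry no molecular identifiers. Members and gene lists were chosen with earlier results of these data known. Named were all 42 members and, of each further list, the 2 most abundant tested genes and the 2 with the largest change past the threshold. One marker of another cell type is not reported here. RefSeq names matched all 42. RefSeq coordinates are of another build and were not used beyond neighbourhood, and no sequence is printed.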

Additional observations from a re-analysis of the deposited data

How the results depend on the processing

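Library scaling and the length correction moved the results most. With library totals 2479 genes were higher and 9539 lower; of glycolysis 5 were higher and 6 lower, and of the mitochondrial cycle 4 and 9. Of the enzymes above 0 with TMM factors, those below 0 under that scaling were HK1 (-0.434), HK2 (-0.465), GPI (-0.363), PFKL (-0.013), PFKP (-0.425), ALDOC (-0.154), PGK1 (-0.030), PGAM1 (-0.147), ENO2 (-0.567), LDHA (-0.669), PDHA1 (-0.560), PDHB (-0.570), DLAT (-0.589), DLD (-0.597), CS (-0.575), IDH3G (-0.152), OGDH (-0.440), DLST (-0.536), SUCLG2 (-0.701), SDHA (-0.445), SDHC (-0.274), FH (-0.538), IDH1 (-0.653) and PC (-0.225). So were COL1A1 (-0.452), GFAP (-0.061), GAPDHS (-0.350), LDHC (-0.101), TALDO1 (-0.016) and VIM (-0.030).

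With the length correction 1 glycolytic gene was lower, and of the cycle 7 were higher and 4 lower. The sign turned for ALDOC (-0.051), PGAM1 (-0.00038), ENO2 (-0.063), LDHA (-0.275), LDHB (-0.067), PDHB (-0.550), IDH3B (-0.016), IDH3G (-0.149), SUCLG2 (-0.243), FH (-0.298), ACO1 (0.162), IDH1 (-0.195), GAPDHS (-0.357), LDHC (-0.316) and TALDO1 (-0.224). With the replicate block and the length correction together the counts were again 1, 7 and 4, and the values were ALDOC (-0.051), ENO2 (-0.061), LDHA (-0.274), LDHB (-0.067), PDHB (-0.550), IDH3B (-0.015), IDH3G (-0.150), SUCLG2 (-0.243), FH (-0.298), ACO1 (0.162), IDH1 (-0.194), GAPDHS (-0.357), LDHC (-0.316) and TALDO1 (-0.222). The cause of these shifts was not tested.

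The replicate block alone gave 5580 genes higher and 5861 lower and changed no call of the 42 enzymes, with 15 of glycolysis and 12 of the cycle higher. Same-numbered libraries did not deviate together (correlation 0.04 over genes, 2 numbers), which does not show where the libraries came from. SUCLA2, near 0, was positive with DESeq2 (0.013), RLE factors (0.013) and limma on FPKM (0.014 with either pseudocount). With 1 library left out, SUCLA2 ranged from -0.019 to 0.026 (0.023 without input library 2), SUCLG2 from -0.005 to 0.076 and IDH1 from -0.004 to 0.173. In the same fits the cycle had between 0 and 1 lower gene and from 9 to 12 higher, and glycolysis from 14 to 16 higher; the remaining library of an arm is assumed to vary like the other group. The count filter and the most abundant genes moved no count of glycolysis or the cycle. Depth limited PC, ALDOC and ENO2 most, with under 30 CPM in each library.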
